A study of Mus musculus with 32 samples.

Results

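The 10 genes described here mark GABAergic interneurons, the inhibitory neurons that release gamma-aminobutyric acid (GABA) within local circuits. They were taken from the deposited count table by gene name (Gad1, Gad2, Slc32a1, Pvalb, Sst, Vip, Npy, Lhx6, Reln and Cck). Each name occurred once, giving 10 of 57010 entries, and all 10 passed the filter on low counts that left 20298 genes to be tested. RNA was sequenced in bulk from brain homogenate of 32 humanized APOE mice, with 4 mice in each of 8 groups defined by genotype, sex and treatment. All mice carried human APOE, E3/3 mice (APOE3/3) being the reference genotype and E4/4 mice (APOE4/4) carrying the form linked to Alzheimer's disease, and none was a mouse with the mouse gene. Mice received daily D4F, an HDL-mimetic peptide modelled on apolipoprotein A-I, or PBS (saline, the vehicle) for 12 weeks, between 10.5 and 13.2 months of age. The groups were therefore E3/3 females on PBS, E3/3 males on PBS, E3/3 females on D4F, E3/3 males on D4F, and the same 4 for E4/4.

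GABA is made from glutamate by the glutamate decarboxylases GAD67 and GAD65, encoded by Gad1 and Gad2, and is loaded into synaptic vesicles by the transporter encoded by Slc32a1. Cortical and hippocampal interneurons divide into classes marked by parvalbumin, by somatostatin or by vasoactive intestinal peptide, and many also make neuropeptide Y, cholecystokinin or reelin. None of these transcripts is restricted to interneurons in brain tissue at large: projection neurons of the striatum and neurons of the olfactory bulb, thalamus and hypothalamus also make GABA, and Cck is abundant in excitatory cells of the cortex. In a homogenate, fewer cells of a type and less RNA per cell cannot be told apart.

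The start regions of the 4 members whose level differed between genotypes in vehicle mice are shown because their differences ran in opposite directions. Each RefSeq window covers 250 bases before to 50 bases after an annotated start (GRCm38.p6), is written 5′ to 3′ on the gene's strand, and carries the motifs found in capitals. The Gad1 window is chr2:70561879-70562178 on the plus strand, the Sst window chr16:23890795-23891094 on the minus strand, the Npy window chr6:49822460-49822759 on the plus strand and the Cck window chr9:121495645-121495944 on the minus strand.
Gad1: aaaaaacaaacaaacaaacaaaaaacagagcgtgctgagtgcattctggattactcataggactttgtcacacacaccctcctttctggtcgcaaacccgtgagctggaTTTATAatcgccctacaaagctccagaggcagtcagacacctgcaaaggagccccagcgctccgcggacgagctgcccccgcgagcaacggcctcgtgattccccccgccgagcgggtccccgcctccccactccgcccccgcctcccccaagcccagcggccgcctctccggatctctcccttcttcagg
Sst: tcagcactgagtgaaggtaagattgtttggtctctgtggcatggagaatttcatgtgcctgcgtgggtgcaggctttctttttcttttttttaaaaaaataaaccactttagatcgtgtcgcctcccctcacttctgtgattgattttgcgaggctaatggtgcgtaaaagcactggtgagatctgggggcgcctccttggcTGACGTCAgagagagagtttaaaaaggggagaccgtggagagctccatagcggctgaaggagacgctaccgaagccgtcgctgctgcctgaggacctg
Npy: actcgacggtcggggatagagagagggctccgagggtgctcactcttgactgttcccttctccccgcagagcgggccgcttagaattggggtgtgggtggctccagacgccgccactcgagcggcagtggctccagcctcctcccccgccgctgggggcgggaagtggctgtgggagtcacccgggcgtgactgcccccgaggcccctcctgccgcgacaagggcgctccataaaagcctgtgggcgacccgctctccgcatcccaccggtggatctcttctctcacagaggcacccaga
Cck: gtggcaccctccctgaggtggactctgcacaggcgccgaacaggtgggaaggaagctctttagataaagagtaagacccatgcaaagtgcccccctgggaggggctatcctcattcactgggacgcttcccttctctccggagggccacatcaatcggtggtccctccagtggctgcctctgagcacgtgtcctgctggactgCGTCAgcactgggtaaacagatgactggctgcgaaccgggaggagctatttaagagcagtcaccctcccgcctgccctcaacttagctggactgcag

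Capitals mark TGACGTCA, the full cyclic AMP response element (CRE), its core TGACG, or the TATA box letters TATAAA, each searched on both strands, so that TTTATA in Gad1 and CGTCA in Cck are matches on the opposite strand. The core lies within the full element, and the Sst window matched it on both strands. The full element was present in 1 of the 10 members, Sst, beginning 48 bases before the start, and in 2.03% of 27025 mouse genes with such windows, a gene counting if any of its windows matched. The core occurred in 4 members (Gad2, Sst, Vip and Cck) and in 23% of genes. TATAAA occurred in 3 members (Gad1, Vip and Lhx6, the last in 1 of its 3 windows) and in 15.7% of genes. The 3 members that were lower in E4/4 vehicle mice did not share these letters: Sst held the full element, Cck only the core, and the Npy window held none of the 3 motifs.

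Library totals ranged from 17.77 to 45.06 M counts (M, mega) and were not even across groups. They averaged 24.8 ± 6.44 M in E3/3 vehicle, 29.7 ± 6.39 in E3/3 D4F, 34.7 ± 7.99 in E4/4 vehicle and 32.4 ± 9.24 in E4/4 D4F mice (SD, n = 8 each), and the 11 libraries below 26 M comprised 6, 2, 1 and 2 of these. Mouse Apoe was at 0.957 to 3.40 counts per M (CPM, scaled by the trimmed mean of M-values) in all 32 libraries, and sex-linked transcripts matched the label in 32 of 32. Markers of excitatory neurons, astrocytes, oligodendrocytes and microglia were detected in every genotype and treatment combination. The cerebellar list summed to 11.6 to 23.5 CPM per library, so the Pvalb and Reln levels came from tissue with little cerebellar marker RNA.

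All members were well counted, from 354 reads for Vip in its lowest library to 33510 for Gad1 in its highest. Per kilobase of exon, the peptide genes Sst, Npy and Cck were the most abundant members: the mean level over 32 libraries was 280 CPM per kb for Sst, 157 for Npy and 127 for Cck. Gad1 followed at 59.0, Pvalb at 48.1, Gad2 at 37.9 and Slc32a1 at 31.6. Vip stood at 9.75 CPM per kb, the transcription factor gene Lhx6 at 4.93 and Reln, whose transcript is very long, at 2.56. In GENCODE M21, Slc32a1 and Reln share exon bases with an antisense gene, Gm14205 and Gm10475, whose own counts reached at most 9 and 15 in any library.

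The members differed in how much they varied between mice of 1 group. The within-group SD of log2 CPM was 0.65 for Pvalb, higher than in 99.5% of genes of similar level, and 0.444 for Gad2, 0.418 for Vip, 0.407 for Cck and 0.386 for Slc32a1. Sst (0.296), Lhx6 (0.291), Npy (0.27) and Gad1 (0.245) were tighter, and Reln (0.164) was the steadiest member, against a median of 0.24 over all tested genes. Set against genes of similar level, each member still varied more than most. The share of those genes with a smaller SD was 68.9% for Reln, 87.2% for Gad1, 92.2% for Lhx6, 93.7% for Npy and 94.5% for Sst. It was 97.9% to 98.6% for Gad2, Vip, Cck and Slc32a1. Ordered by mean level, the 8 groups spanned from 1.2-fold in Lhx6 to 1.95-fold in Pvalb. In every member, all 7 pairs of neighbouring groups in that order overlapped. The lowest and highest groups did not overlap for Sst, Vip, Npy, Reln and Cck, and overlapped for the other 5; because these groups are the extremes of 8, the same held for 34.5% of all tested genes.

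**Figure D1:**
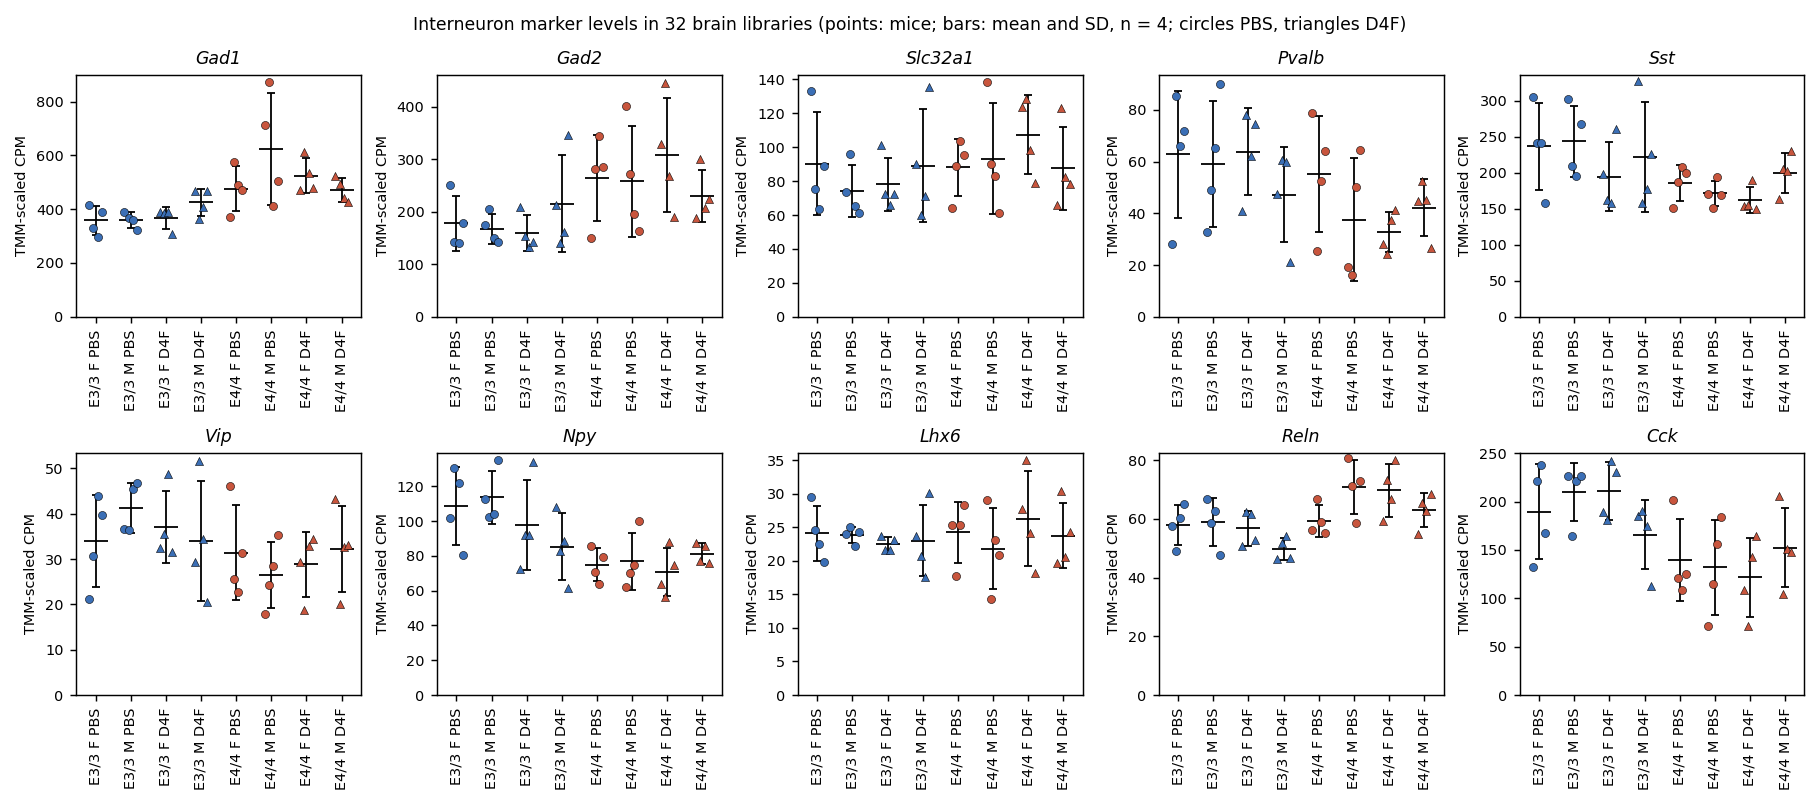
Level of each of the 10 members in every library, in TMM-scaled CPM, by genotype, sex and treatment; each point is 1 mouse and the bars are group means with SD (n = 4). Gad1 sits higher and Sst, Npy and Cck lower in the E4/4 vehicle groups than in the E3/3 vehicle groups, with overlapping points.

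The comparison of E4/4 with E3/3 mice on vehicle asked how APOE genotype relates to these markers without treatment. Gad1 was 1.52-fold higher in E4/4 mice, whereas among the peptide genes Sst fell by 25.5%, Npy fell by 31.7% and Cck fell by 32.1%. So 4 of the 10 members were called (1 higher, 3 lower; edgeR quasi-likelihood test, adjusted p below 0.05), while 20.4% of all tested genes were called in this comparison, 9.89% higher and 10.5% lower. An unadjusted p below 0.05 was reached by 5 members, these 4 and Gad2, and by 32.8% of genes. The median log2 fold change of the members was -0.219, against 0.017 over all tested genes. The remaining members, among them Slc32a1, Pvalb, Vip, Lhx6 and Reln, did not pass.

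Gad1, for the decarboxylase that supplies most GABA in the cell body (chr2:70553072-70602014, plus strand), was measured at 297.7, 362.7 and 415.9 CPM (lowest, median, highest) in E3/3 vehicle mice and at 369.0, 497.7 and 871.6 CPM in E4/4 vehicle mice. All 8 E4/4 mice lay above the E3/3 median, and the groups overlapped. The log2 fold change was 0.61 (SE 0.114, adjusted p = 0.000543, edgeR). Male E4/4 vehicle mice read 711.4, 871.6, 410.2 and 504.6 CPM, all above the 4 male E3/3 vehicle mice at 390.3, 365.6, 359.8 and 321.1 CPM. Female E4/4 vehicle mice read 369.0, 575.7, 490.8 and 471.2 CPM and overlapped the female E3/3 vehicle mice at 415.9, 328.7, 297.7 and 389.6 CPM. The call was kept in each of the 32 fits that left out 1 library, with values of 0.504 to 0.695.

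Gad2, for the decarboxylase found at synaptic terminals (chr2:22622205-22693874, plus strand), moved by a similar amount with more spread. Its levels were 140.8, 161.6 and 251.0 CPM in E3/3 and 149.5, 276.2 and 402.4 CPM in E4/4 vehicle mice, and 7 of 8 E4/4 mice lay above the E3/3 median. The log2 fold change of 0.60 (SE 0.218) had an adjusted p of 0.0522 by edgeR and passed in 10 of the 32 fits without 1 library. Slc32a1, for the vesicular GABA transporter (chr2:158610767-158615748, plus strand), stood at 61.40, 74.54 and 133.3 CPM in E3/3 and 61.40, 89.51 and 138.7 CPM in E4/4 vehicle mice. The ranges almost coincided, and the log2 fold change of 0.15 had a 95% interval of -0.24 to 0.54 (adjusted p = 0.63).

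Sst encodes somatostatin, the peptide of dendrite-targeting interneurons (chr16:23889573-23890958, minus strand). Its levels were 158.3, 241.7 and 304.5 CPM in E3/3 vehicle mice and 150.9, 179.1 and 207.4 CPM in E4/4 vehicle mice, with all 8 E4/4 mice below the E3/3 median and overlapping ranges. The log2 fold change was -0.425 (SE 0.141, adjusted p = 0.0325, edgeR). The call was lost in 10 of 32 fits without 1 library, with values of -0.415 to -0.352 and adjusted p of 0.0559 to 0.0906. Those libraries were E3/3 female vehicle replicates 1, 2 and 3, E3/3 male vehicle replicates 1 and 4, E4/4 female vehicle replicates 1 and 2, and E4/4 male vehicle replicates 1, 2 and 4.

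Npy encodes neuropeptide Y, made by somatostatin-class and neurogliaform interneurons (chr6:49822710-49829507, plus strand). It was at 80.74, 108.4 and 135.3 CPM in E3/3 vehicle mice and 62.39, 72.89 and 100.1 CPM in E4/4 vehicle mice. All 8 E4/4 mice were below the E3/3 median, with ranges that overlapped. The log2 fold change was -0.55 (SE 0.129, adjusted p = 0.00338, edgeR), and the call was kept in all 32 fits without 1 library (-0.615 to -0.488).

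Cck encodes cholecystokinin, made by a basket-cell class and by many cortical excitatory cells (chr9:121489824-121495694, minus strand). It was at 132.1, 221.3 and 238.2 CPM in E3/3 vehicle mice and 71.77, 123.3 and 202.0 CPM in E4/4 vehicle mice, again with all 8 E4/4 mice below the E3/3 median and overlapping ranges. The log2 fold change was -0.56 (SE 0.194, adjusted p = 0.0422, edgeR). The call was lost in 17 of 32 fits without 1 library, with values of -0.547 to -0.445 and adjusted p of 0.0501 to 0.108. Those libraries were E3/3 female vehicle replicates 2 and 3, E3/3 male vehicle replicates 1, 3 and 4, E4/4 female vehicle replicates 2, 3 and 4, E4/4 male vehicle replicates 1 and 2, all 4 E3/3 female D4F libraries, E3/3 male D4F replicate 1, and E4/4 male D4F replicates 3 and 4.

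The other class markers did not pass. Pvalb, for the calcium buffer of fast-spiking interneurons (chr15:78191114-78206400, minus strand), was at 28.05, 65.69 and 89.84 CPM in E3/3 and 16.02, 51.46 and 78.65 CPM in E4/4 vehicle mice, and its log2 fold change of -0.43 had an interval of -1.06 to 0.21. Vip, for the peptide of interneurons that inhibit other interneurons (chr10:5639218-5647617, plus strand), was at 21.13, 38.20 and 46.85 CPM in E3/3 and 17.83, 27.08 and 46.13 CPM in E4/4 vehicle mice. Its log2 fold change was -0.38, with an interval of -0.79 to 0.03 (adjusted p = 0.192).

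Lhx6 encodes the transcription factor that specifies interneurons born in the medial ganglionic eminence (chr2:36081953-36105408, minus strand). It was at 19.81, 24.09 and 29.53 CPM in E3/3 and 14.28, 24.23 and 29 CPM in E4/4 vehicle mice, with a log2 fold change of -0.06 (interval -0.34 to 0.22). Reln encodes reelin, a secreted ligand of the lipoprotein receptors Vldlr and Lrp8 (chr5:21884454-22344702, minus strand). It was at 47.78, 59.39 and 66.59 CPM in E3/3 and 55.07, 62.89 and 80.73 CPM in E4/4 vehicle mice, with a log2 fold change of 0.15 (interval -0.01 to 0.31, adjusted p = 0.183).

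Some of these calls were lost when sequencing depth, uneven between the genotypes, was taken into account. With the depth class added to the model, 1 member was called (Gad1, 0.53, adjusted p = 0.0179), against 6.34% of all genes, and the log2 fold change became -0.196 for Sst, -0.376 for Npy and -0.511 for Cck (adjusted p 0.445, 0.0835 and 0.163). Above 26 M counts only 2 E3/3 vehicle libraries remained, female replicate 4 and male replicate 3, against 7 E4/4 vehicle libraries. For that fit only log2 fold changes are given: 0.613 for Gad1, -0.29 for Npy and -0.607 for Cck, while Sst changed sign to 0.0848.

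By sex, vehicle males gave 1 called member, Gad1 at 0.80 (SE 0.162, adjusted p = 0.0113, edgeR; 3.97% of genes called), and vehicle females gave none (10.3% of genes called). In females Gad1 was at 0.41 (adjusted p = 0.1) and Npy at -0.54 (adjusted p = 0.0568), and 2 members and 24.3% of genes had an unadjusted p below 0.05. In males the 4 E4/4 and the 4 E3/3 mice did not overlap for 4 members (Gad1, Sst, Vip and Npy) and for 13.4% of all tested genes, and 6 members and 20.6% of genes had an unadjusted p below 0.05. The difference between the sexes was tested directly and no member passed: the smallest adjusted p was 0.918, that of Gad1, and 0% of genes passed. Over all groups, female minus male log2 differences ranged from -0.11 for Gad1 to 0.18 for Pvalb, with no member and 0.0739% of genes called, and no member and 5.47% of genes at an unadjusted p below 0.05.

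**Figure D2:**
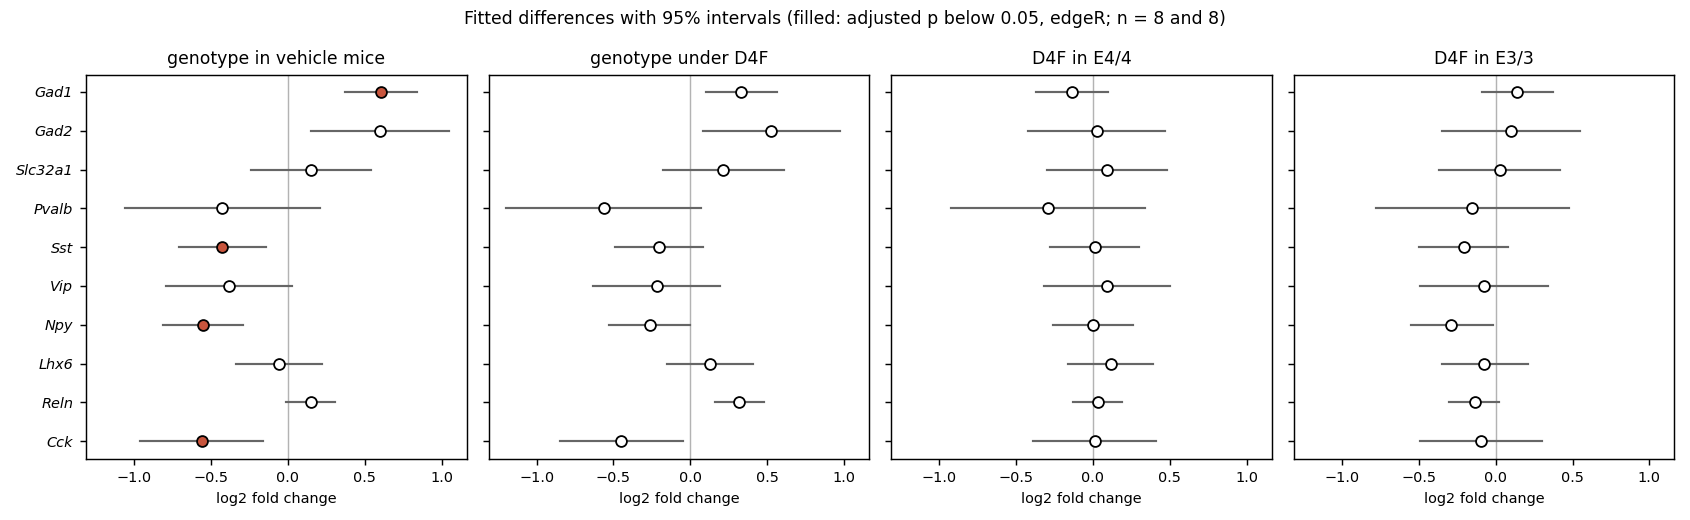
Log2 fold change of each member with its 95% interval in 4 comparisons (genotype in vehicle mice, genotype under D4F, and D4F in each genotype; n = 8 and 8); filled points passed an adjusted p of 0.05. The 4 filled points, Gad1 above 0 and Sst, Npy and Cck below 0, are all in the vehicle genotype comparison.

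Among mice on D4F, Gad1 was again higher and the peptide genes lower in E4/4 by point estimate, but no member was called by edgeR, and 0.00493% of genes were. An unadjusted p below 0.05 was reached by 5 members (Gad1, Gad2, Npy, Reln and Cck) and by 13.8% of all genes. Gad1 was at 307.1, 388.8 and 466.3 CPM in E3/3 and 425.6, 485.6 and 613.1 CPM in E4/4 D4F mice, a log2 fold change of 0.33 (SE 0.114, adjusted p = 0.2). Npy was at 61.37, 90.10 and 133.9 CPM in E3/3 and 56.48, 76.28 and 87.81 CPM in E4/4 D4F mice, a log2 fold change of -0.26 (adjusted p = 0.362).

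Reln had the smallest p among the members under D4F. It was at 46.39, 52.19 and 62.24 CPM in E3/3 and 54.92, 66.05 and 80.13 CPM in E4/4 D4F mice, with all 8 E4/4 mice above the E3/3 median and overlapping ranges. Its log2 fold change of 0.32 (SE 0.0782) had an adjusted p of 0.0959 by edgeR and of 0.0257 by DESeq2. The genotype differences under D4F were 0.53 for Gad2, -0.56 for Pvalb, -0.45 for Cck, -0.22 for Vip and -0.21 for Sst, none of them past the threshold. Within D4F mice of 1 sex, no member and 0% of genes were called, and an unadjusted p below 0.05 was reached by 6 members and 15.5% of genes in females and by 1 member and 4.58% of genes in males. The difference between those sexes was not tested.

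The D4F comparisons asked whether the peptide changed the markers in either genotype, and no member was called in any. In E4/4 mice the 10 log2 fold changes lay between -0.29 for Pvalb and 0.11 for Lhx6, and no member had an unadjusted p below 0.05. In this comparison edgeR called 0% of genes, and 382 genes (1.88%) had an unadjusted p below 0.05. The intervals set the size that these 8 and 8 mice leave possible: -0.37 to 0.10 for Gad1, -0.28 to 0.30 for Sst, -0.26 to 0.26 for Npy and -0.39 to 0.41 for Cck. E4/4 mice on D4F read 149.9, 176.2 and 229.5 CPM for Sst and 71.50, 145.6 and 205.3 CPM for Cck, ranges that overlapped those on vehicle.

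In E3/3 mice 3.25% of genes were called with D4F and no member was. The member with the smallest p was Npy, at -0.29 (SE 0.128, interval -0.55 to -0.02, unadjusted p = 0.0334, adjusted p = 0.207, edgeR), and 7 of 8 D4F mice lay at or below the vehicle median. It was the only member with an unadjusted p below 0.05, beside 19.5% of genes. The genotype-by-D4F interaction, the direct test of a different response in E4/4, called no member and 0% of genes. Its smallest adjusted p among the members was 0.57, for Gad1 (-0.28, interval -0.61 to 0.05), and 10.4% of genes but no member had an unadjusted p below 0.05. The genotype and D4F comparisons share vehicle libraries, so their values are given side by side only. Within 1 sex, D4F called no member in either genotype, and 0.0985% of genes in E3/3 males and 0% in the other 3 comparisons. The D4F response differed between the sexes of E4/4 mice at an unadjusted p below 0.05 in 2 members and 2.59% of genes, and at an adjusted p of 1: the female minus male difference in log2 response was 0.54 for Gad1 (unadjusted p = 0.0235) and 0.41 for Reln (unadjusted p = 0.0136, edgeR). No member and 0% of genes passed this test in either genotype.

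The members did not vary as 1 group across the 32 libraries. With group means removed, 25 of the 45 pairs of members had an adjusted p below 0.05, 10 positive and 15 negative (permutation within groups). The share of pairs of other genes that would pass was not computed, so these counts are not shown to be particular to the members. Gad1, Gad2 and Slc32a1, the genes for making and packing GABA, varied together, joined by Lhx6 for Gad2 and Slc32a1. Vip, Cck, Npy and Pvalb varied against those 3 in all 12 pairs and with each other in 5 of 6, the sixth being Vip with Npy (r = 0.431, adjusted p = 0.0552). Reln was in none of the 25 pairs. All 25 kept their sign without the 2 libraries farthest from the median and within each depth class (6 lower-depth and 19 higher-depth libraries, since a group with 1 library in a class drops out).

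Gad2 and Slc32a1 had the highest correlation, with r = 0.951 and rho = 0.962 (n = 32, permutation p = 1e-05, the smallest that 100000 permutations give, adjusted p = 7.5e-05), 0.934 without the 2 farthest libraries, 0.980 at lower depth and 0.968 at higher depth. Gad1 followed Gad2 less closely, with r = 0.647 and rho = 0.669 (permutation p = 0.00183, adjusted p = 0.00588), 0.726 without the 2 farthest, 0.895 at lower and 0.579 at higher depth. On the opposite side, Vip and Cck had r = 0.849 and rho = 0.817 (permutation p = 1e-05, adjusted p = 7.5e-05), 0.822 without the 2 farthest, 0.841 at lower and 0.910 at higher depth. Between the sides, Gad2 and Cck had r = -0.929 and rho = -0.904 (permutation p = 1e-05, adjusted p = 7.5e-05), -0.915 without the 2 farthest, -0.958 at lower and -0.928 at higher depth. Libraries with more Gad2 than their group's mean thus tended to hold less Cck and Vip.

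**Figure D3:**
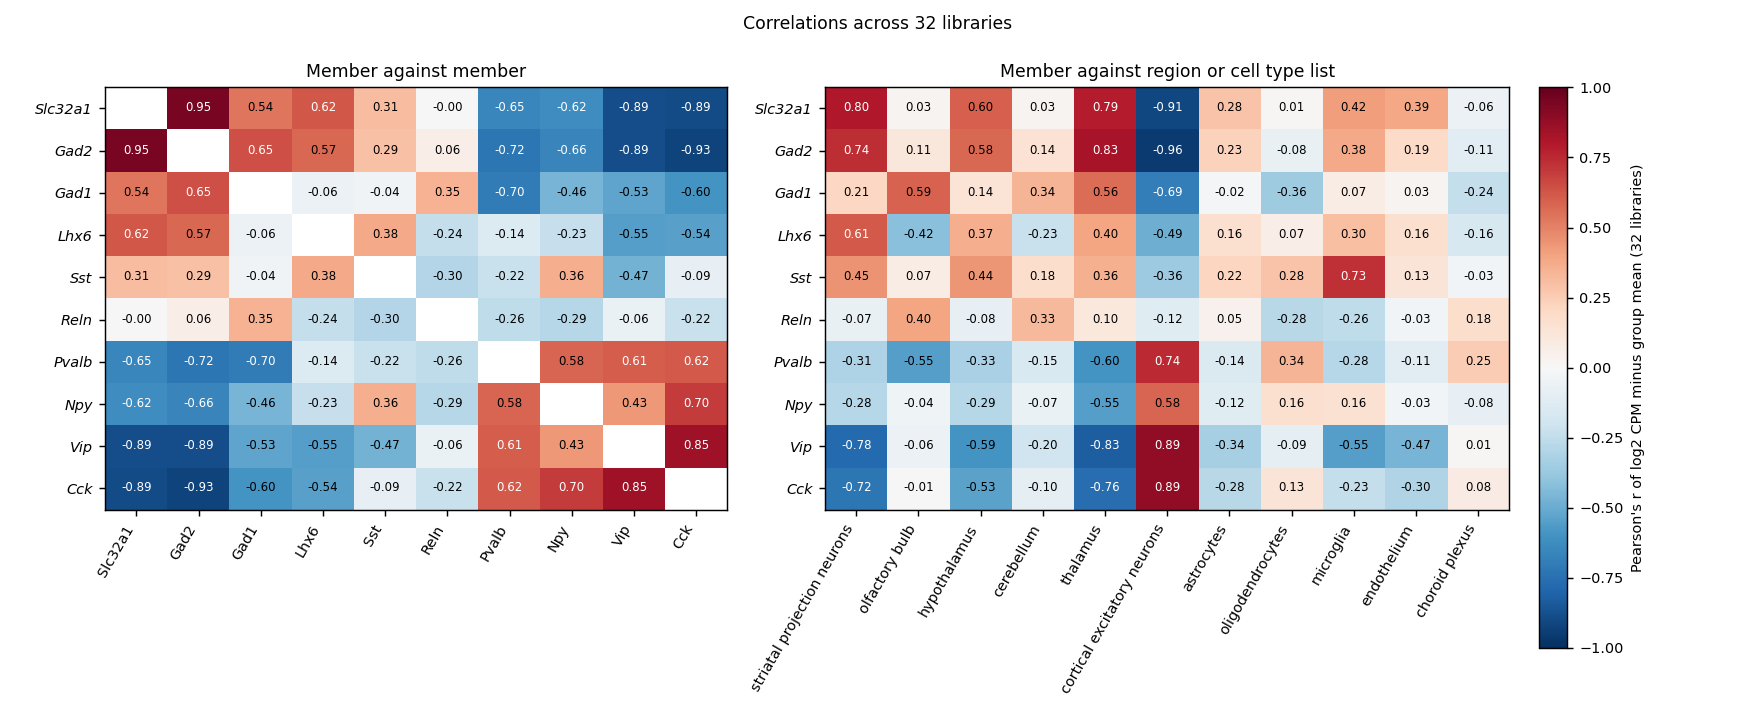
Pearson's r between pairs of members (left) and between members and the mean level of 11 region and cell type marker lists (right), over 32 libraries with group means removed. Gad1, Gad2 and Slc32a1 form a positive block set against Vip, Cck, Npy and Pvalb, and the column of cortical excitatory markers divides the members the same way.

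The same division followed the regional markers of the sample. Of 110 relations between the members and 11 lists, 27 had an adjusted p below 0.05. A share over other genes was computed for the cortical excitatory list only (genes such as Slc17a7 and Neurod6). Against that list 7 of the 10 members passed. Their absolute r was at least 0.585, a size that 15.4% of the 20276 other tested genes also reached against this list. Among the 14023 of those genes that averaged at least 1 on the log2 CPM scale, as all members did, the share was 19%. Gad2 had r = -0.96 and rho = -0.956 with it (n = 32, permutation p = 1e-05, adjusted p = 0.000183), -0.957 without the 2 farthest libraries, -0.983 at lower and -0.979 at higher depth. Cck had r = 0.889 and rho = 0.883 (permutation p = 1e-05, adjusted p = 0.000183), 0.864 without the 2 farthest, 0.950 at lower and 0.927 at higher depth. Slc32a1 (-0.913), Gad1 (-0.688), Vip (0.885), Pvalb (0.744) and Npy (0.585) also passed.

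Markers of some subcortical regions and of the olfactory bulb ran the other way for GABA synthesis and packing genes. The lists differed by gene. Gad1 did not pass against the striatal list (r = 0.21), nor did Gad2 (r = 0.112) or Slc32a1 (r = 0.028) against the olfactory bulb list. The thalamic list passed for Gad1 (r = 0.561) and Slc32a1 (r = 0.787) as well as for Gad2. Slc32a1 had r = 0.802 and rho = 0.811 with the list of striatal projection neurons (permutation p = 2e-05, adjusted p = 0.00022 for r), 0.770 without the 2 farthest libraries, 0.810 at lower and 0.824 at higher depth. Gad2 was related to the striatal (r = 0.737) and thalamic lists (r = 0.826), Lhx6 to the striatal list (r = 0.613) and Gad1 to the olfactory bulb list (r = 0.591, rho = 0.603, permutation p = 0.00144, adjusted p = 0.00834, 0.495 without the 2 farthest). Sst, unlike Npy, Vip and Cck, did not pass against the cortical list. It passed against the hypothalamic list (r = 0.444, adjusted p = 0.0174 by permutation, 0.171 at lower and 0.631 at higher depth). So did Slc32a1 (r = 0.599, adjusted p = 0.00907), Gad2 (r = 0.578, adjusted p = 0.0166) and, with the opposite sign, Vip (r = -0.595, adjusted p = 0.0166). Sst also passed against the microglial list, with which Vip had the opposite sign (r = -0.55, adjusted p = 0.0174). For Sst the microglial relation had r = 0.729 and rho = 0.688 (permutation p = 0.0001, adjusted p = 0.000786), 0.684 without the 2 farthest, 0.389 at lower and 0.632 at higher depth. Reln passed against none of the 11 lists.

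**Figure D4:**
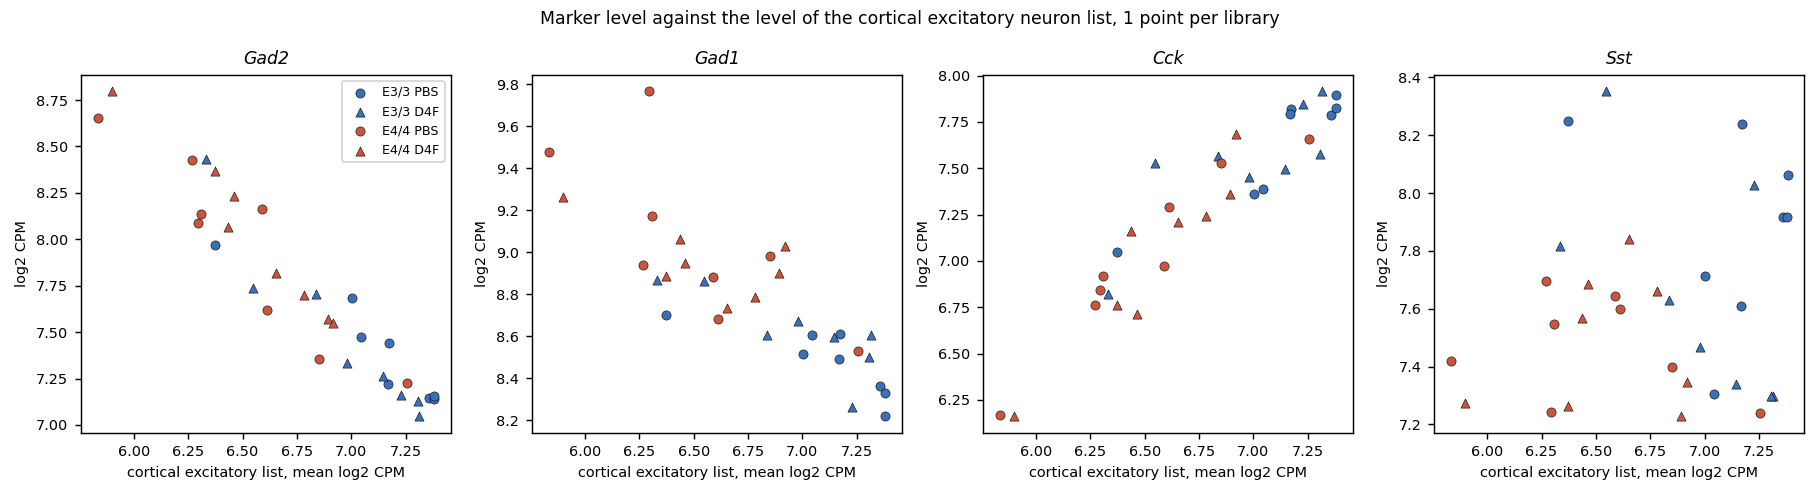
Level of Gad2, Gad1, Cck and Sst in each of the 32 libraries (log2 CPM) against the mean log2 CPM of the cortical excitatory list, with colour for genotype and shape for treatment. Along that axis Gad2 and Gad1 are lower and Cck higher where the list is high, and E4/4 libraries lie mostly towards its lower end; with group means removed, r is -0.96 for Gad2 and 0.889 for Cck.

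Some of these regional markers also differed between the genotypes on vehicle. In that comparison 20.4% of all tested genes were called, 9.89% higher and 10.5% lower, and several of the list counts below lie near these shares. All 12 cortical excitatory genes were below 0 in E4/4 relative to E3/3 vehicle mice (median log2 fold change -0.637), and 7 fell past the threshold, among them Camk2a (-0.55), Slc17a7 (-0.59), Nrgn (-0.88) and Neurod2 (-0.68). Their summed level was 4710, 6730 and 8260 CPM in E3/3 and 3330, 4170 and 6370 CPM in E4/4 vehicle mice (lowest, median, highest). All 14 striatal genes were above 0 (median 0.35) and none passed, with sums of 1300, 2400 and 5220 CPM in E3/3 and 1840, 3520 and 5430 CPM in E4/4. The olfactory bulb list (3 of 7 higher; Tshz1 0.78, Doc2g 1.64 and Sp8 1.52) summed to 34.7, 39.4 and 142 CPM in E3/3 and 39.5, 110 and 417 CPM in E4/4. The hypothalamic list had 3 of 10 tested genes higher (Trh 1.47, Avp 3.36 and Gal 2.35) and summed to 6.46, 9.17 and 35.8 CPM in E3/3 and 8.60, 30.1 and 48.5 CPM in E4/4, with 1 of its 12 genes at 0 in all E3/3 vehicle libraries. The thalamic list had 1 of 6 higher (Slc17a6, 0.61), the cerebellar list 0 of 6. Among glial and vascular lists, 4 of 8 oligodendrocyte genes rose, 1 of 9 astrocyte genes rose and 2 fell, 1 of 8 endothelial genes rose and 2 fell, 1 of 8 choroid plexus genes rose (Aqp1, 1.91) and 0 of 9 microglial genes passed. The part of these markers in the members' differences was not tested, apart from that of the cortical list.

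With the level of the cortical excitatory list added to the model, an alternative chosen after the data were seen, the genotype difference in vehicle mice was 0.316 for Gad1 (adjusted p = 0.0391), -0.601 for Sst (adjusted p = 0.0176), -0.296 for Npy (adjusted p = 0.126) and -0.00394 for Cck (adjusted p = 0.988). Gad2 went to -0.16, and Slc32a1 to -0.444 (adjusted p = 0.00293). Because that list itself differed between the genotypes, the part of tissue composition in the members' differences cannot be told apart from genotype.

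Genes that act on the members' products were read from lists of the pathway, to be set beside the 20.4% of all genes called in this comparison. Of 10 genes for GABA uptake, breakdown and chloride transport, 2 rose in E4/4 vehicle mice and none fell (median 0.193): Aldh5a1, which completes GABA breakdown, by 0.33 (adjusted p = 0.000982), and Slc12a2, a chloride importer, by 0.39 (adjusted p = 0.00143, edgeR). Of 15 interneuron transcription factors none passed (median 0.054), with Nr2f2 at 0.56 (adjusted p = 0.0701). Of 27 other subtype genes 3 rose and 2 fell (median 0.014). Cort, for the somatostatin-like peptide cortistatin, fell by 0.66 on the log2 scale (adjusted p = 0.00444), while Erbb4, the neuregulin receptor of interneurons, was higher at 0.36, Adarb2 at 0.32 and Igf1 at 0.40.

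Among 12 receptors of the members' peptides, 3 fell and 1 rose (median -0.116). The somatostatin receptor gene Sstr4 was at -0.81 (adjusted p = 0.013), the cholecystokinin receptor gene Cckbr at -0.53 (adjusted p = 0.0193) and the vasoactive intestinal peptide receptor gene Vipr1 at -0.41 (adjusted p = 0.00692, edgeR), whereas the neuropeptide Y receptor gene Npy5r was at 0.44 (adjusted p = 0.00937). Npy5r was also the only receptor called for D4F in E3/3 mice, at 0.53 (adjusted p = 0.0188, edgeR). Both Npy5r calls share the E3/3 vehicle mice, which averaged 3.83 CPM. The mean was 5.53 CPM in E3/3 D4F, 5.19 in E4/4 vehicle and 4.77 in E4/4 D4F mice. Of 11 genes of the reelin pathway 2 rose and 2 fell (median 0.047): Vldlr, a reelin receptor, was at 0.35 (adjusted p = 0.0095) and the adaptor gene Crk at 0.26, and the kinase gene Src and the exchange factor gene Rapgef1 were both at -0.23. Among mice on D4F, no gene of these lists was called between the genotypes.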

How the data were processed

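Messenger RNA from brain homogenate was sequenced from 32 mice as stranded libraries of 150-base read pairs, per the labels' protocols. For each gene name, the authors deposited raw counts, made with Trimmomatic, HISAT2 and featureCounts on the mouse build GRCm38, per the submitters' processing notes. Tool versions, the annotation and the counting's strand setting are not given in the sources used, so reads of a gene and an antisense partner may not be separated. Every column was matched to a group by its label.

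Counts were tested in R 4.3.3 with edgeR 4.0.16: filterByExpr over 8 groups (minimum count 10, minimum total 15), TMM scaling, 1 coefficient per group over all 32 libraries, the quasi-likelihood F test, and Benjamini-Hochberg adjustment over 20298 genes, two-sided, in 17 contrasts that average both sexes unless a sex is named. SE and 95% intervals are of log2 fold changes, and log2 CPM used a prior count of 2. Libraries below 26 M (mega) counts form the lower depth class. Correlations used log2 CPM minus the group mean, with 100000 permutations within groups (two-sided) and adjustment over 45 pairs or 110 member and list relations. List levels are means of member-free marker lists. DESeq2 1.42.0 and limma 3.58.1 were alternatives. Gene positions and lengths are from GENCODE M21 (GRCm38) and promoter windows from RefSeq, matched by symbol for 10 of 10 members. Precision is limited by the number of mice and is given by the SE and the 95% intervals.

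The members and marker lists were chosen with earlier results of these data known. Named genes are the members, up to 4 called genes with the smallest p of a list (or 2 without a call), and the 10 genes most like Gad1, Gad2 and Slc32a1 in mean correlation. Some genes that this rule picks are not reported here. Equal replicate numbers carry no shared litter or day in the labels.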

Additional observations from a re-analysis of the deposited data

Results flagged for a closer look

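In 80 sets of 4 mice (10 members in 8 groups), 3 held a library set apart from the other 3 by more than Dixon's 95% limit, and in 40 sets of 8 mice 1 did; chance gives about 1 in 20. Gad1 was lowest in E3/3 female D4F replicate 4, at 307.1 CPM against 386.8 in the next library. Sst was highest in E4/4 female D4F replicate 3, at 189.5 CPM against 154.7. Cck was lowest in E3/3 male PBS replicate 2, at 164.5 CPM against 221.5. Among the 8 E3/3 mice on D4F, Gad2 was highest in male replicate 4, at 345.8 CPM against 213.3. No member's response differed between sexes or genotypes by the interaction tests.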

How the results depend on the processing

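For genotype in vehicle mice, 4 members were called with DESeq2 size factors, limma-voom, thinned counts and GC and length trends removed (Vip passing at -0.696 in place of Cck in the last), and with the replicate block (4 called, the same genes). DESeq2 called 5, adding Gad2, beside 4665 of all genes. Without a low-count filter 2 were called, beside 3159 of all genes, and with depth class in the fit 1, beside 1286. The fit above 26 M counts kept only 2 E3/3 vehicle libraries, so its calls are not counted here. Leaving out 1 library gave 2 to 5, while the calls over all genes ranged from 3125 to 4871. The 7 fits with 2 calls (Gad1 and Npy) were those without E3/3 female vehicle replicate 2 or 3, E3/3 male vehicle replicate 1 or 4, E4/4 female vehicle replicate 2, or E4/4 male vehicle replicate 1 or 2. Under D4F, DESeq2 called 1 (Reln) and the other alternatives 0, and the D4F and interaction comparisons gave 0 throughout. The share of all genes that DESeq2 called under D4F is not given here, so the Reln call is not set against it. Over all genes, removing GC and length trends left 3132 calls for genotype in vehicle mice, 506 of them higher, against 4137 with 2007 higher. In the same comparison DESeq2 size factors gave 4152 calls, limma-voom 4285, thinned counts 3615 and the replicate block 4067.

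Some log2 fold changes changed sign. For genotype in vehicle mice these were Lhx6 at 0.0624 with depth class, Sst at 0.0848 and Lhx6 at 0.138 above 26 M, and, with the cortical list level, Gad2 at -0.16, Slc32a1 at -0.444, Pvalb at 0.315 and Vip at 0.211. Under D4F they were Sst at 0.0156 above 26 M and, with the cortical list, Slc32a1 at -0.164, Pvalb at 0.0081, Vip at 0.205 and Lhx6 at -0.0451. For D4F in E4/4 they were Npy at 0.00486 (limma-voom), Sst at -0.00303 and Cck at -0.00179 (no filter), Sst at -0.0324 (depth class) and -0.0119 (thinned), Cck at -0.00501 (block) and -0.0219 (cortical list), and, above 26 M, Gad2 at -0.167, Slc32a1 at -0.108, Sst at -0.0288 and Npy at 0.0684. For D4F in E3/3 they were Lhx6 at 0.0252 (depth class) and 0.116 (above 26 M), Sst at 0.0403 (above 26 M), and, with the cortical list, Gad2 at -0.102, Slc32a1 at -0.122, Pvalb at 0.0486, Vip at 0.0545 and Cck at 0.0652. For the interaction they were Slc32a1 at -0.00758 (depth class) and -0.262, Pvalb at 0.141, Sst at -0.0691 and Lhx6 at -0.0721 (above 26 M), and Gad2 at 0.214, Vip at -0.00658 and Cck at -0.0871 (cortical list). Of these only Slc32a1 at -0.444 passed the threshold. The causes were not tested.

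Leaving out 1 library changed signs within these ranges: Lhx6 for genotype in vehicle mice, -0.131 to 0.0202; D4F in E4/4, Gad2 -0.0916 to 0.17, Slc32a1 -0.00871 to 0.22, Sst -0.0327 to 0.0531, Vip -0.000322 to 0.207, Npy -0.0619 to 0.0741, Reln -0.00928 to 0.0684 and Cck -0.0931 to 0.127; D4F in E3/3, Gad2 -0.0653 to 0.205, Slc32a1 -0.111 to 0.15 and Vip -0.217 to 0.0166; the interaction, Gad2 -0.19 to 0.0899, Slc32a1 -0.0569 to 0.205, Pvalb -0.279 to 0.0549 and Cck -0.0042 to 0.222. Same-numbered libraries of different groups had r above 0.1 in 25 of 112 pairs. Their r spread to both sides of 0, from -0.407 to 0.322, with a median of 0.0121, against -0.00255 for other numbers. The cortical list and the genotype are confounded in vehicle mice, as is depth in part, and 4 mice per group limit every value. Library number order is confounded with genotype in all mice.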

Other observations

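Of 14035 genes outside the members that averaged at least 1 on the log2 CPM scale, the 10 most like Gad1, Gad2 and Slc32a1 over the 32 libraries, group means removed, had a mean Pearson correlation with them of 0.801 to 0.834. In order they were Pde1c (0.834), Fam102b (0.814), Patj (0.812), Amotl1 (0.811), Tiam1 (0.806), Nrp2 (0.805), Rrp1b (0.803), Lhfpl3 (0.802), Ampd3 (0.802) and Plce1 (0.801). Pde1c correlated with Gad1 at 0.694, with Gad2 at 0.917 and with Slc32a1 at 0.892. All 3 values come from the same libraries and share their composition, so they describe likeness only.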
